A study of Mus musculus with 12 samples.

Results

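The collagen genes are the genes whose symbol in the array's gene table is written as Col, a number, the letter a and a second number, such as Col1a1. Of the 19938 mouse genes that the array reads with a transcript cluster of 1 gene symbol, 44 were collagen genes. A transcript cluster is a set of probes read together as 1 transcript, and the 44 genes had 46 of the 35556 clusters. Col6a5 and Col6a6 each had 2 clusters, of which the one with the higher mean over all arrays was used. All 44 symbols are also the current ones in RefSeq.

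Septum RNA of 6 virgin and 6 lactating mice was read on Affymetrix Mouse Gene 1.0 ST arrays, 1 per mouse, and the lactating mice were taken between postpartum days 6 and 8. All 12 females were about 70 days old and came from 1 line that had been bred for high maternal aggression out of the outbred hsd:ICR stock, so the control mice carried the selected background too. Lactating females had first been kept with a breeder male while the virgin females were kept with other females, and all were then housed singly and fed breeder chow. Virgin mice were in estrus, diestrus I or diestrus II, and the labels do not say which mouse was in which stage. Lactating mice differed from virgin mice in mating, pregnancy, birth, nursing and contact with pups together, and the groups cannot separate these. The study's methods name the whole septum as the tissue, while the protocol in the labels names the lateral septum. Markers of septal neurons, among them the GABA synthesis gene Gad1 and the transcription factor Zic1, were measured in all mice, and their summed intensity was 31009 to 34586 in lactating and 30292 to 33464 in virgin mice.

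Collagens are extracellular proteins built of 3 chains that wind into a triple helix. Fibrillar collagens form the cables of connective tissue, type IV collagen forms the sheet of basement membranes, and other classes decorate fibrils, anchor cells or span the cell membrane. In the brain most collagen lies in the meninges and in the basement membranes of blood vessels, where endothelial cells, pericytes, smooth muscle and perivascular fibroblasts make it, while neurons make a few members such as the transmembrane collagen Col25a1. In whole septum, fewer cells of a type and less RNA per cell cannot be told apart.

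The upstream sequences of 5 collagen genes are shown here because results for these genes are given below. Col4a1 and Col4a2 encode the chains of the common type IV collagen and start head to head on opposite strands, and Col18a1, Col15a1 and Col5a3 were 3 of the 4 collagen genes that differed between the groups. The sequences are RefSeq windows on GRCm38.p6 from 250 bases before to 50 bases after the annotated start. Capitals mark the motif CCAAT, which reads ATTGG on the other strand, the motif GGGCGG, which reads CCGCCC there, and the motif TATAAA, which reads TTTATA there, and no match in these windows overlapped another. In order, the windows are chr8:11312777-11313076 on the minus strand, chr8:11312555-11312854 on the plus strand, chr10:77166481-77166780 on the minus strand for 1 of the 2 listed starts of Col18a1, chr4:47207762-47208061 on the plus strand, and chr9:20815018-20815317 on the minus strand.
Col4a1: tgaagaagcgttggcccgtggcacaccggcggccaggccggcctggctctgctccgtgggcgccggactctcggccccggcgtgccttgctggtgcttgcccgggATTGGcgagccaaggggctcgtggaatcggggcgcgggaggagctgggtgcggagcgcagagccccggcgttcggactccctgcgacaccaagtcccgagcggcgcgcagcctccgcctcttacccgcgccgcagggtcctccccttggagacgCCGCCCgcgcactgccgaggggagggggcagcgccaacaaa
Col4a2: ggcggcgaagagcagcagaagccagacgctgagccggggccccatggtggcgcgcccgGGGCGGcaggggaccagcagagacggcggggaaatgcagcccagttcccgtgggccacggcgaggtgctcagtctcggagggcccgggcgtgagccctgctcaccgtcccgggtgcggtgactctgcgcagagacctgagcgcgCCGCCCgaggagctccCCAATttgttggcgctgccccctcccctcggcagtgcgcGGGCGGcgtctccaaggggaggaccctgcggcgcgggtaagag
Col18a1: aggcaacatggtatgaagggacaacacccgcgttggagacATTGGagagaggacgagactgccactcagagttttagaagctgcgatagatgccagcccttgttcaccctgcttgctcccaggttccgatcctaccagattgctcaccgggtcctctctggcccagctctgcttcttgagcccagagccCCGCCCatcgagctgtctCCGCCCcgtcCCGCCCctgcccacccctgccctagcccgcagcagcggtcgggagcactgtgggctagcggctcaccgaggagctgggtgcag
Col15a1: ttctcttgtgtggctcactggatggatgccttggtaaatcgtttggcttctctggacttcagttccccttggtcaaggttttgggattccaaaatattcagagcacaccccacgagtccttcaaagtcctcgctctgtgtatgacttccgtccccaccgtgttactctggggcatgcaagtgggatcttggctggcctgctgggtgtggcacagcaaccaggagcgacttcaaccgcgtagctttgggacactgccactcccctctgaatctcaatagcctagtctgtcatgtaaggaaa
Col5a3: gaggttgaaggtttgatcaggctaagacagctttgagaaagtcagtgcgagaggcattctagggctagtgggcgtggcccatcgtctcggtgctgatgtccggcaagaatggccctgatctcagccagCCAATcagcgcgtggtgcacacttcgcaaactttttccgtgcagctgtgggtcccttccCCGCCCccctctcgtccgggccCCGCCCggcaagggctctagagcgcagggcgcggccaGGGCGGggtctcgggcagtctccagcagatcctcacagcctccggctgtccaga

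The annotated starts of Col4a1 and Col4a2 lay 21 bases apart, and their windows shared 78 bases. Each start lay downstream of the other, so the annotated transcripts overlap there. Most of each window therefore lies within the other gene. Col4a2, Col18a1 and Col5a3 each held GGGCGG 3 times and CCAAT 1 time, Col4a1 held each 1 time, and the Col15a1 window held none of the 3 motifs. The table gave 38 windows for 35 of the collagen genes. GGGCGG stood in 60.5% of them against 35.7% of all 32851 windows of the same length, where the median GC content was 59.8% in collagen windows and 52.7% in all windows. CCAAT stood in 34.2% of collagen windows and 37.4% of all windows, and TATAAA in 13.2% and 13.6%. These matches are a description of the letters.

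Across the 44 genes, 4 were lower in lactating mice and 0 were higher at an unadjusted p under 0.05 in limma, the cutoff used for every call here. The 4 genes were Col18a1, Col5a3, Col15a1 and Col26a1, with group means 7.10% to 9.44% lower in lactating mice. They make up 9.09% of the collagen genes, where 4.69% of all clusters were called lower and 3.26% higher, 4.83% and 3.86% of all genes with 1 cluster each, and 4.51% and 4.89% of the 12097 genes whose mean intensity lay in the range of the collagen genes. After each array's median was subtracted the split over all clusters was 2.79% lower and 5.70% higher, with 2 collagen genes lower. After Benjamini-Hochberg adjustment over all clusters 0 clusters were below 0.05, and the lowest adjusted p of a collagen gene was 0.619. No collagen gene had groups that did not overlap, which 0.186% of all clusters showed in the lower and 0.208% in the higher direction.

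**Figure D1:**
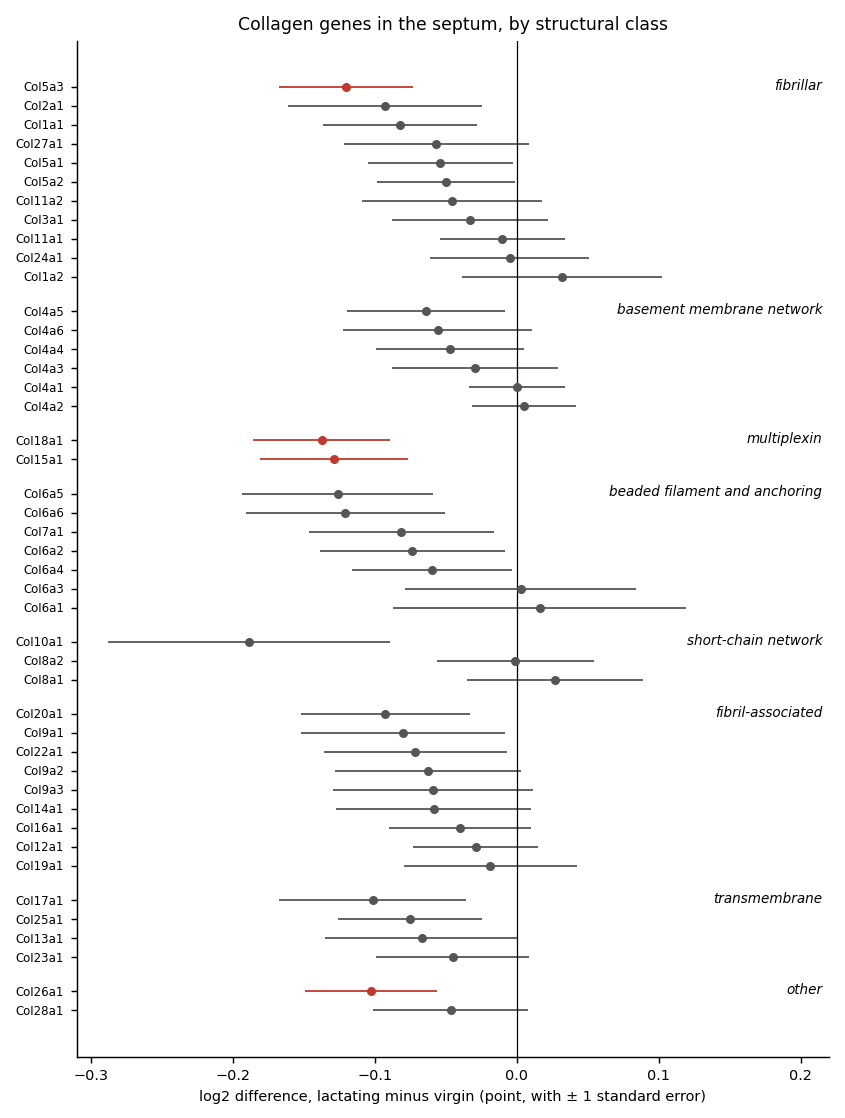
Difference of each of the 44 collagen genes between 6 lactating and 6 virgin mice, as log2(intensity + 16), lactating minus virgin, with bars of 1 standard error on each side and genes grouped by structural class. Red marks the 4 genes with an unadjusted limma p under 0.05, and 39 of the 44 points lie below zero. On a scale relative to olfactory receptor genes 16 did, where the median of all clusters was 0.060, against -0.0093 on the scale shown.

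Small differences below zero were seen across the whole family. The log2 difference, lactating minus virgin, was below zero for 39 of 44 collagen genes, or 88.6%, and above zero for 5, while 33 were below zero after quantile normalization, 34 after subtraction of array medians and 16 on a scale set relative to olfactory receptor genes. Of all clusters 54.4% were below zero, of all genes 52.1% and of the genes in the same intensity range 49.1%. The median log2 difference of the collagen genes was -0.058, against -0.0093 over all clusters, -0.0043 over all genes and 0.0016 over the genes in that range. On the scale relative to olfactory receptor genes it was 0.012, against 0.060 over all clusters. The median standard error of 1 collagen gene was 0.059, so a single gene at the median moved by about its own error.

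The collagen genes varied over the mice together with the olfactory receptor genes. The latter, which are silent in nearly all cells outside the nose, had a median log2 difference of -0.074, with 116 of 1027 genes lower, 4 higher and 82.4% below zero. In each mouse the deviation of every collagen gene from its own mean over 12 mice was averaged. This mean was lowest in lactating mouse 3 at -0.13, where 4 of 44 genes were above their own mean, and highest in virgin mouse 2 at 0.13, where 39 of 44 were. Lactating mouse 6 at -0.074 and virgin mouse 4 at -0.093 were also low, so that low mice stood in both groups. The next highest means were in virgin mouse 1 at 0.073 and virgin mouse 6 at 0.071. The highest lactating mean was 0.040, in lactating mouse 1. Lactating mouse 3 held the lowest value of the 12 mice for 21 collagen genes and virgin mouse 4 for 11, and virgin mouse 2 held the highest for 27. Over all 12097 genes in the same intensity range the mean deviation was -0.0098 in lactating mouse 3 and 0.0068 in virgin mouse 2. A mean of so many genes on normalized arrays can stay near zero while sets of them move. It therefore cannot show whether other genes of like intensity moved as the collagen genes did.

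**Figure D2:**
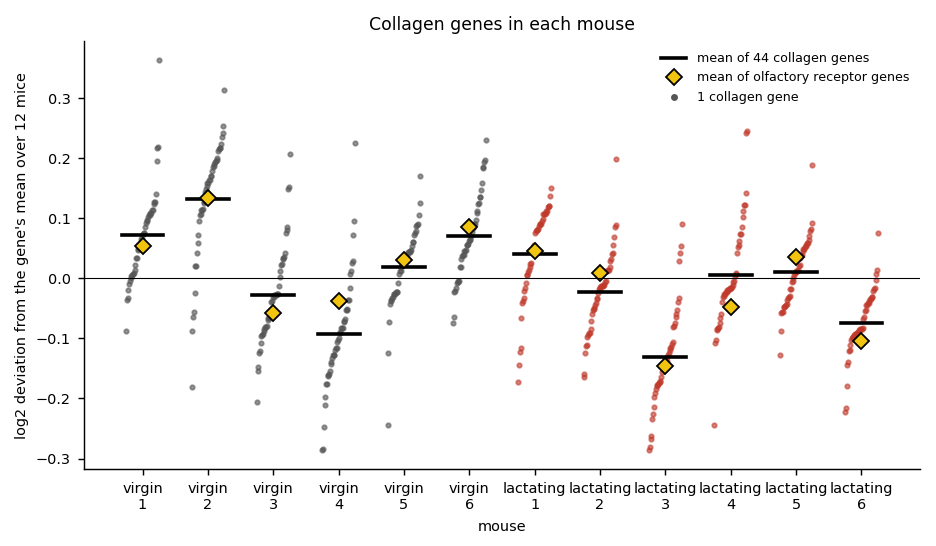
Deviation of the 44 collagen genes from their own mean over 12 mice, in log2 units, for each virgin and each lactating mouse, with 1 point per gene. The black line is the mean of the collagen genes and the yellow diamond the mean of the olfactory receptor genes, which lie close together in most mice and are lowest in lactating mouse 3 and highest in virgin mouse 2.

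The mean deviation of the collagen genes and that of the olfactory receptor genes had a Pearson r of 0.926 and a Spearman rho of 0.930 over the 12 mice. The value was 0.914 within lactating mice, 0.930 within virgin mice and 0.871 without the 2 mice farthest out. Both means come from the same arrays and share their background and scaling. The collagen mean also followed the first principal component of all clusters, which held 22.05% of the variance, with r = 0.958. Array medians ranged only from 320 to 339. With the first component as a covariate the median log2 difference of the collagen genes was 0.019, and with the level set relative to olfactory receptor genes it was 0.012. The medians of all clusters were -0.0021 and 0.060. Of the collagen genes 1 and 0 were then called lower, where 2.77% and 0.65% of all clusters were. Without lactating mouse 3 and virgin mouse 2, the arrays farthest out on the first component, 0 collagen genes were called and 25 of 44 were below zero. Of all clusters 2.38% were then called lower. What lies behind the first component was not tested.

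The collagen genes differed in how closely they followed this profile. The median r of the 946 pairs of collagen genes over 12 mice was 0.575, from -0.743 to 0.959, and it was 0.573 on deviations from the group means. Of the 44 genes, 32 had r above 0.5 with the olfactory receptor mean. The anchoring fibril gene Col7a1 had the highest r with the mean of the other collagen genes, at 0.970, and r = 0.912 with the olfactory receptor mean. Col25a1 at -0.33 and Col6a1 at -0.06 were the 2 genes with a negative r with olfactory receptor genes, and Col6a3 at 0.02, Col23a1 at 0.12, Col4a2 at 0.17 and Col12a1 at 0.18 were close to zero.

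The multiplexins Col15a1 and Col18a1, basement membrane collagens whose sugar-bearing chains carry the endostatin domains at their ends, were both lower in lactating mice. Col18a1 intensity ran from 286.6 over a median of 305.5 to 348.6 in lactating mice and from 322.4 over 338 to 369.1 in virgin mice. Of the 6 lactating mice 5 lay below every virgin mouse, and lactating mouse 1 alone reached into the virgin range. The mean was 311 ± 20.7 in lactating and 343 ± 17.0 in virgin mice (SD, n = 6 each). The difference was -0.14 log2 units (SE 0.048), with limma p = 0.0137 and exact permutation p = 0.0173. It was called in each of the 12 fits that left out 1 mouse. Col18a1 had r = 0.822 with the olfactory receptor mean, and with the first component as a covariate its log2 difference was -0.077 with a limma p of 0.0613. Relative to olfactory receptor genes it was -0.068 with a limma p of 0.138.

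Col15a1 intensity ran from 381 over a median of 414.8 to 432.4 in lactating mice and from 394.5 over 455.4 to 480.7 in virgin mice. All virgin mice except virgin mouse 4 lay above every lactating mouse. The mean was 410 ± 19.6 against 450 ± 33.0 (SD, n = 6 each), with a log2 difference of -0.13, a standard error of 0.052, limma p = 0.0278 and exact permutation p = 0.0325. Col15a1 followed the olfactory receptor mean little, with r = 0.296, and its log2 difference was -0.12 with a limma p of 0.0691 with the first component as a covariate and -0.060 with a limma p of 0.387 relative to olfactory receptor genes. Without lactating mouse 1, lactating mouse 2, virgin mouse 1, virgin mouse 3 or virgin mouse 6, limma p lay between 0.0562 and 0.0654.

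**Figure D3:**
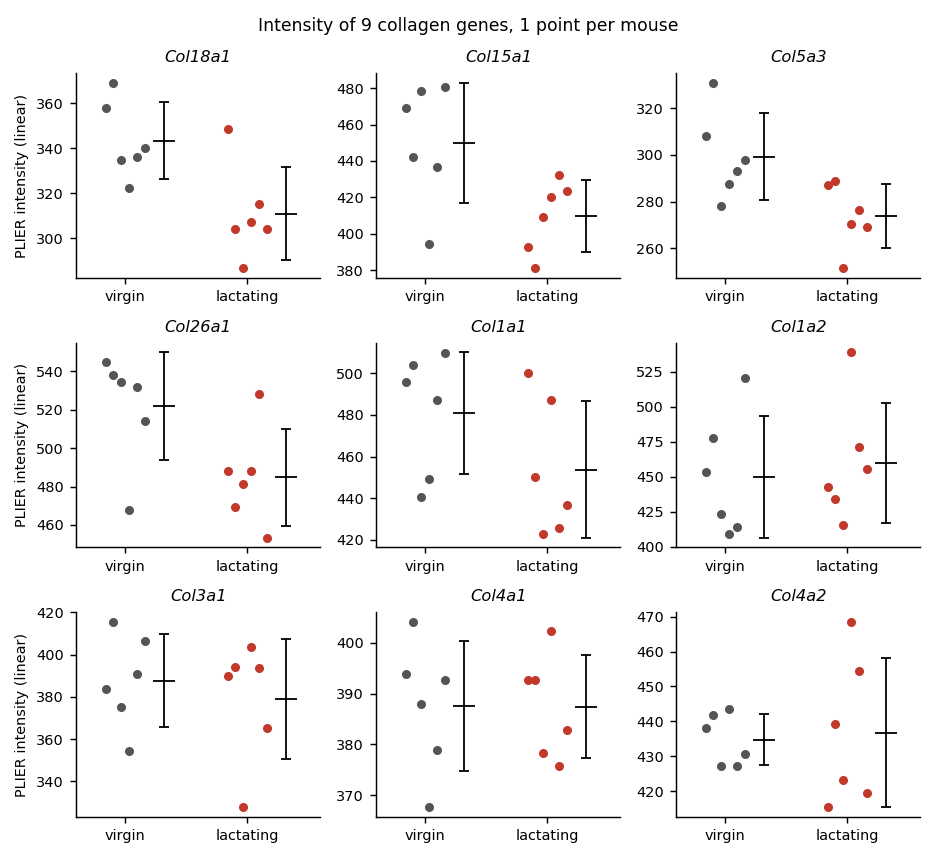
PLIER intensity on a linear scale of 9 collagen genes in each of 6 virgin and 6 lactating mice, with the mean and SD of each group beside the points and axes that do not start at zero. In Col18a1, 5 of 6 lactating mice lie below every virgin mouse, while the groups of Col1a2, Col3a1, Col4a1 and Col4a2 lie over each other.

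Of the 11 fibrillar collagen genes, 1 was lower in lactating mice, 10 were below zero and the median log2 difference was -0.050. The one called was Col5a3, a minor chain of type V collagen, which nucleates and thins fibrils. Its intensity ran from 251.5 over 273.6 to 288.7 in lactating mice and from 278 over 295.5 to 330.9 in virgin mice. Lactating mice 3, 4, 5 and 6 lay below every virgin mouse. The mean was 274 ± 13.7 against 299 ± 18.5 (SD, n = 6 each), with a log2 difference of -0.12, a standard error of 0.047, limma p = 0.0237 and exact permutation p = 0.0152. Col5a3 had r = 0.897 with the olfactory receptor mean. Limma p was 0.0567 without lactating mouse 3, 0.0512 without virgin mouse 2 and 0.110 with the first component as a covariate, where the log2 difference was -0.058. Relative to olfactory receptor genes the log2 difference was -0.051 with a limma p of 0.217.

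Type I and type III collagen, the main cables of the meninges and vessel walls, gave no call. Col1a1 intensity ran from 422.6 over 443.3 to 500.3 in lactating mice and from 440.5 over 491.4 to 509.8 in virgin mice, with a log2 difference of -0.08, a standard error of 0.054 and limma p = 0.154 (exact permutation p = 0.136). Col1a2, whose chain joins that of Col1a1 in the same molecule, ran from 416 over 449.3 to 539 and from 409.2 over 438.4 to 520.6, with a log2 difference of 0.03, a standard error of 0.071 and limma p = 0.661 (exact permutation p = 0.669). Lactating mouse 4 held the highest Col1a2 value. Col3a1 ran from 327.6 over 391.7 to 403.6 and from 354.4 over 387.2 to 415.6, with a log2 difference of -0.03 and limma p = 0.558 (exact permutation p = 0.565). The groups overlapped widely in all 3 genes. Col27a1, a fibrillar collagen of cartilage, ran from 559.6 over 617.2 to 684.8 and from 561 over 656.6 to 733.4, with a log2 difference of -0.057 and limma p = 0.402 (exact permutation p = 0.418). The other fibrillar genes, Col2a1, Col5a1, Col5a2, Col11a1, Col11a2 and Col24a1, had log2 differences from -0.093 for Col2a1 to -0.0050 for Col24a1.

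The 6 chains of type IV collagen, the network of basement membranes, gave 0 calls, with a median log2 difference of -0.038. Col4a1 ran from 375.7 over 387.7 to 402.4 in lactating mice and from 367.5 over 390.4 to 404.2 in virgin mice, with means of 387 ± 10.2 and 388 ± 12.8 (SD, n = 6 each). The difference was -0.0002 log2 units (SE 0.034), with limma p = 0.995 (exact permutation p = 0.989), so the groups lay over each other. Its sign turned under quantile normalization, cyclic loess, subtraction of array medians and the olfactory receptor scale, and the value ran from -0.00044 to 0.069 over the alternatives. Col4a2 ran from 415.3 over 431.1 to 468.6 and from 427.2 over 434.4 to 443.5, with a log2 difference of 0.005 and limma p = 0.892 (exact permutation p = 0.857). The lactating mice spread more widely, with an SD of 21.4 against 7.29, so that 3 lay below and 2 above every virgin mouse. The difference in spread was not tested. Col4a3, Col4a4, Col4a5 and Col4a6, chains of the rarer networks, had log2 differences from -0.064 for Col4a5 to -0.030 for Col4a3, with limma p from 0.270 to 0.620.

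The chains of 1 protein or fibril were then compared over the 12 mice, in 12 pairs with p adjusted over the pairs. These tests set r against zero, while the median r of all 946 pairs of collagen genes was 0.575. Whether chains of 1 protein vary together more closely than other collagen genes was not tested. The head-to-head pair Col4a1 and Col4a2 had r = 0.189 (permutation p = 0.558, adjusted p = 0.608) and rho = 0.112 (permutation p = 0.735, adjusted p = 0.801). Without the 2 mice farthest from the median of Col4a1, r was 0.689 with adjusted permutation p = 0.0540, so the low value rests on those 2 mice. Col4a5 and Col4a6, whose starts lie 1343 bases apart, had r = 0.797 (permutation p = 0.00074, adjusted p = 0.00444) and rho = 0.888 (permutation p = 0.00028, adjusted p = 0.00330), with r = 0.824 without the 2 mice farthest out. Col4a3 and Col4a4 had r = 0.678 (permutation p = 0.0116, adjusted p = 0.0279) and rho = 0.748 (permutation p = 0.00727, adjusted p = 0.0291), with r = 0.763 without 2 mice. The 4 rarer chains had r of 0.778 to 0.854 with the olfactory receptor mean, while Col4a1 had 0.457 and Col4a2 0.167.

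**Figure D4:**
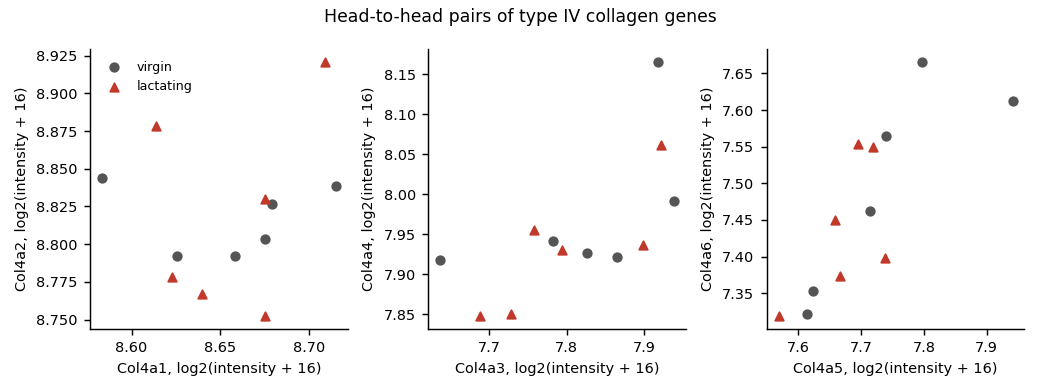
Intensities, as log2(intensity + 16), of the 3 pairs of type IV collagen genes that lie head to head, with 1 point per mouse, circles for virgin and triangles for lactating mice. The points of Col4a5 and Col4a6 rise together (r = 0.797) and those of Col4a1 and Col4a2 are spread (r = 0.189).

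Outside type IV collagen, 3 pairs passed an adjusted p of 0.05. Col9a1 and Col9a2 had r = 0.893 (permutation p = 0.00011, adjusted p = 0.00132) and rho = 0.867 (permutation p = 0.00055, adjusted p = 0.00330), with r = 0.787 without 2 mice. Col9a2 and Col9a3 had r = 0.742 (permutation p = 0.00477, adjusted p = 0.0191), but rho was 0.524 (permutation p = 0.0821, adjusted p = 0.164) and r fell to 0.576 without 2 mice, with adjusted permutation p = 0.0975, so the relation rests on those mice. Col1a1 and Col3a1 had r = 0.685 (permutation p = 0.00938, adjusted p = 0.0279) and rho = 0.678 (permutation p = 0.0182, adjusted p = 0.0546), with r = 0.749 without 2 mice. On deviations from the group means, 5 pairs passed as well. All genes of these pairs had r above 0.6 with the olfactory receptor mean. The lowest r of the 12 pairs was -0.412, for the type VI chains Col6a1 and Col6a3, with adjusted permutation p = 0.220. Other chains of 1 molecule had r = 0.468 for Col1a1 and Col1a2 and r = -0.132 for Col8a1 and Col8a2, beside the median of 0.575 over all pairs of collagen genes.

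The 7 genes of beaded filaments and anchoring fibrils gave 0 calls, with 5 below zero and a median log2 difference of -0.074. Col6a1, a chain of the type VI filaments around cells, ran from 906.5 over 968.9 to 1131 in lactating mice and from 827.6 over 923.1 to 1270 in virgin mice, with a log2 difference of 0.016, a standard error of 0.10 and limma p = 0.878 (exact permutation p = 0.892). Virgin mouse 1 at 1270 and virgin mouse 4 at 1153 stood above all lactating mice, and the SD was 182 in virgin against 81.8 in lactating mice. Its sign turned under quantile normalization. Col6a6, a later-named type VI chain, ran from 385 over 452.2 to 482 and from 439.9 over 475.4 to 584, with a log2 difference of -0.12 and limma p = 0.109 (exact permutation p = 0.130), and -0.069 with a limma p of 0.237 in its second cluster. Col6a5 had log2 differences of -0.13 in both clusters, with limma p of 0.0842 and 0.0635. Col6a2, Col6a3, Col6a4 and Col7a1 had log2 differences from -0.081 for Col7a1 to 0.0026 for Col6a3.

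The 9 fibril-associated collagens, which coat fibrils and link them to other molecules, were all below zero with 0 calls and a median log2 difference of -0.059. Col9a2 ran from 362.6 over 402.1 to 439.1 in lactating and from 367.9 over 425.7 to 483.2 in virgin mice, with a log2 difference of -0.062 and limma p = 0.358 (exact permutation p = 0.377). Col9a3 ran from 506.4 over 577.8 to 607.7 and from 476.1 over 610.3 to 652.5, with a log2 difference of -0.059 and limma p = 0.419 (exact permutation p = 0.448). In each group 1 mouse lay far below the rest, lactating mouse 3 and virgin mouse 4, and the log2 difference was -0.025 with a limma p of 0.723 without the first and -0.12 with a limma p of 0.0255 without the second, the 1 call in 12 fits that left out a mouse. Col12a1, Col14a1, Col16a1, Col19a1, Col20a1, Col22a1 and Col9a1 had log2 differences from -0.092 for Col20a1 to -0.019 for Col19a1, a collagen that some neurons make.

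The 4 transmembrane collagens were all below zero, with 0 calls and a median log2 difference of -0.071. Col25a1, which neurons make and whose shed part is found in amyloid plaques, ran from 1252 over 1351 to 1427 in lactating mice and from 1302 over 1442 to 1538 in virgin mice. The difference was -0.075 log2 units (SE 0.051), with limma p = 0.160 (exact permutation p = 0.149). Its profile over the mice ran against most collagens, as lactating mouse 3 held the highest lactating value, and the r with the mean of the other collagen genes was -0.422. With the first component as a covariate the log2 difference was -0.13 with a limma p of 0.00959, and it was the 1 collagen gene called there. It was also called after quantile normalization, with -0.099 and a limma p of 0.0392, and after cyclic loess, with -0.10 and a limma p of 0.0360. Relative to olfactory receptor genes the log2 difference was -0.0063 with a limma p of 0.939, after subtraction of array medians it was -0.052 with a limma p of 0.361, and 0 of the 12 fits without 1 mouse gave a call. Col23a1 ran from 486.7 over 538.7 to 590.9 and from 511.6 over 562.1 to 596.6, with a log2 difference of -0.045 and limma p = 0.417 (exact permutation p = 0.403). Col13a1 and Col17a1, the latter a hemidesmosome protein, had log2 differences of -0.067 and -0.10 with limma p of 0.342 and 0.148.

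The 3 short-chain collagens, which form open nets as in the cornea, gave 0 calls, with 2 below zero and a median log2 difference of -0.0011. Col8a1 ran from 190.4 over 210.5 to 250.6 in lactating mice and from 190 over 204.8 to 229.6 in virgin mice, with a log2 difference of 0.027 and limma p = 0.672 (exact permutation p = 0.701). Col8a2 ran from 227.1 over 236.6 to 282.6 and from 233.8 over 243.3 to 259.4, with a log2 difference of -0.0011 and limma p = 0.985 (exact permutation p = 0.985). Lactating mice spread more widely here too, with 3 below and 2 above every virgin mouse. Col10a1, a collagen of growing cartilage, had the lowest log2 difference of all 44 genes, at -0.19 with a standard error of 0.099. Its intensity ran from 150.2 over 173.5 to 206.8 and from 150.2 over 213.2 to 223.6, and with limma p = 0.0799 (exact permutation p = 0.104) it was the gene just outside the cutoff.

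Col26a1, an EMI domain collagen that fits no large class, was the gene just inside the cutoff. It ran from 453.2 over 484.6 to 528.1 in lactating mice and from 468 over 533 to 544.6 in virgin mice. Of the virgin mice 4 lay above every lactating mouse, and lactating mouse 6 alone lay below every virgin mouse. The mean was 485 ± 25.1 against 522 ± 28.2 (SD, n = 6 each), with a log2 difference of -0.10, a standard error of 0.046, limma p = 0.0452 and exact permutation p = 0.0476. The call held only without lactating mouse 5 and without virgin mouse 4, and limma p lay between 0.0568 and 0.101 when any of the other 10 mice was left out. The log2 difference was -0.074 with a limma p of 0.15 with the first component as a covariate and -0.034 with a limma p of 0.529 relative to olfactory receptor genes. Col28a1, the other gene of this group, ran from 231.6 over 246.8 to 266.6 and from 228.6 over 256.4 to 290.6, with a log2 difference of -0.047 and limma p = 0.409 (exact permutation p = 0.411).

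The genes that make, cut, bind and break down collagens were read in 88 genes on 6 lists, of which 6 were lower and 5 higher in lactating mice, where 4.83% of all genes were lower and 3.86% higher. A list of 22 genes served the making of collagen inside the cell, most of them enzymes and chaperones of the endoplasmic reticulum. Of these, 4 were higher, 0 were lower, 6 were below zero and the median log2 difference was 0.041, beside 52.1% of all genes below zero. The difference between this list and the collagen genes was not tested. After array medians were subtracted, 9 of the 88 genes were higher.

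P4ha1, a catalytic subunit of the prolyl hydroxylase whose product keeps the helix stable, ran from 1173 over 1260 to 1387 in lactating mice and from 962.9 over 1116 to 1219 in virgin mice. Of the lactating mice 4 lay above every virgin mouse, and the groups overlapped between 1173 and 1219. The mean was 1267 ± 79.4 against 1113 ± 96.8 (SD, n = 6 each), with a log2 difference of 0.19, a standard error of 0.061, limma p = 0.00969 and exact permutation p = 0.0152. P4ha2, its sister subunit, had means of 323 ± 19.4 and 291 ± 17.9 (SD, n = 6 each), with a log2 difference of 0.14, limma p = 0.0135 and exact permutation p = 0.0216. Both were called in each of the 12 fits without 1 mouse. With the first component as a covariate P4ha1 had 0.16 with a limma p of 0.0401 and P4ha2 0.11 with a limma p of 0.0595. Their r with the olfactory receptor mean was -0.452 and -0.576.

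Serpinh1, the collagen chaperone Hsp47, had means of 356 ± 18.6 and 327 ± 18.8 (SD, n = 6 each), with a log2 difference of 0.12, limma p = 0.0267 and exact permutation p = 0.0238. It had r = -0.0073 with the olfactory receptor mean, and with the first component as a covariate the log2 difference was 0.15 with limma p = 0.0117. Limma p lay between 0.0557 and 0.0634 without lactating mouse 1, lactating mouse 5, virgin mouse 3 or virgin mouse 6. Fkbp14, a prolyl isomerase that helps the helix fold, had means of 492 ± 31.8 and 439 ± 44.1 (SD, n = 6 each), with a log2 difference of 0.16, limma p = 0.0287 and exact permutation p = 0.0346. Limma p lay between 0.0530 and 0.0688 without lactating mouse 3, lactating mouse 6, virgin mouse 1 or virgin mouse 6. Its r with the olfactory receptor mean was -0.661, and the log2 difference was 0.10 with a limma p of 0.142 with the first component as a covariate. P4hb, the other subunit of prolyl hydroxylase, Plod1, Plod2 and Plod3, which hydroxylate lysine, and Crtap, Ppib and P3h1, which modify a single proline, had log2 differences from -0.099 for Plod2 to 0.054 for P3h1 and gave no call.

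**Figure D5:**
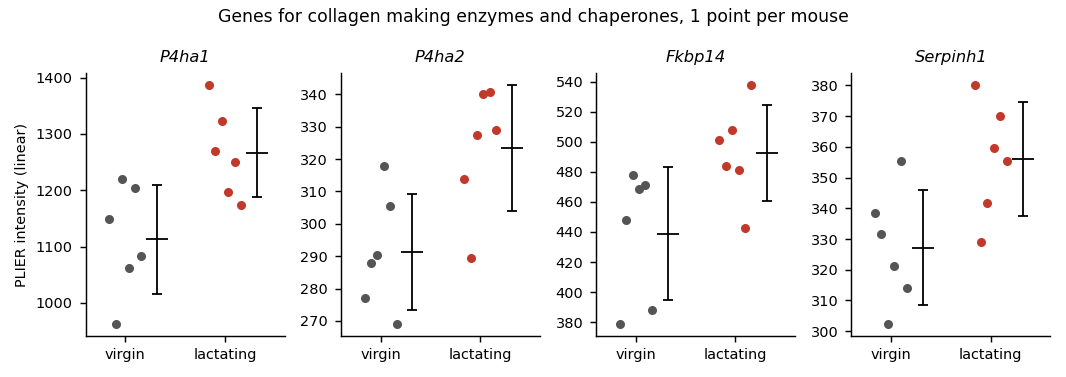
PLIER intensity on a linear scale of the 4 genes for collagen making enzymes and chaperones that were higher in lactating mice, with 1 point per mouse, the mean and SD of each group, and axes that do not start at zero. The means were 1267 against 1113 for P4ha1, 323 against 291 for P4ha2, 492 against 439 for Fkbp14 and 356 against 327 for Serpinh1, and the groups overlap in each gene.

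Of 12 genes that process and crosslink collagen outside the cell, 1 was lower and the median log2 difference was 0.0042. Adamts3, a protease that trims the ends of procollagen, had means of 1387 ± 185 and 1618 ± 181 (SD, n = 6 each), with a log2 difference of -0.22, limma p = 0.0348 and exact permutation p = 0.0563. These values are those of the brightest of the 16 clusters of Adamts3. Adamts3 was called in 6 of the 12 fits without 1 mouse. Limma p lay between 0.0595 and 0.0816 without lactating mice 1, 3 or 4 or virgin mice 1, 4 or 6. The log2 difference was -0.24 with a limma p of 0.0536 with the first component as a covariate and -0.15 with a limma p of 0.155 relative to olfactory receptor genes. The crosslinking enzyme Lox and the collagen-binding protein Sparc had log2 differences of -0.0048 and 0.055 and gave no call.

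Of 10 collagen receptors, 2 were lower and the median log2 difference was -0.044. Lair1, an inhibitory receptor of immune cells, had means of 460 ± 31.9 and 520 ± 40.6 (SD, n = 6 each), with a log2 difference of -0.17, limma p = 0.0119 and exact permutation p = 0.0152. It was called in each of the 12 fits without 1 mouse and with the first component as a covariate, where limma p was 0.0250, but relative to olfactory receptor genes it had -0.10 with a limma p of 0.181. Itga2, a chain of the collagen-binding integrin of platelets and epithelia, had means of 166 ± 9.52 and 186 ± 16.9 (SD, n = 6 each), with a log2 difference of -0.15, limma p = 0.0235 and exact permutation p = 0.0216. Its limma p was 0.0555 without lactating mouse 3, and its r with the olfactory receptor mean was 0.812. With the first component as a covariate its log2 difference was -0.075 with a limma p of 0.127. Ddr1, Ddr2 and Itga1 had log2 differences of -0.048, 0.091 and -0.041.

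Of 12 genes for breakdown of collagen and its inhibitors, 2 were lower, with a median log2 difference of -0.056. They were the neutrophil collagenase Mmp8, with means of 46.7 ± 5.13 and 55.1 ± 5.75, and the membrane protease Fap, with means of 74.3 ± 9.72 and 88.4 ± 9.39 (SD, n = 6 each). The log2 differences were -0.18 with limma p = 0.0170 (exact permutation p = 0.0325) and -0.21 with limma p = 0.0180 (exact permutation p = 0.0368), and their r with the olfactory receptor mean was 0.710 and 0.700. With the first component as a covariate they had -0.11 with a limma p of 0.0961 and -0.14 with a limma p of 0.101. Both were dim, with means over all mice of 50.9 and 81.4 where array medians were 320 to 339. The 22 other proteins of basement membranes, laminins, nidogens and perlecan among them, gave 0 calls and a median log2 difference of 0.00049. Lamb2, a laminin chain of vessels, had 0.00084, the perlecan gene Hspg2 had -0.033 and Nid1 had 0.10.

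Of the 10 small leucine-rich proteoglycans, which bind fibrils and set their width, Kera was lower and Ogn higher. Kera, known from the cornea, had means of 76.5 ± 3.70 and 87.4 ± 8.80 (SD, n = 6 each), with a log2 difference of -0.16, limma p = 0.0141 and exact permutation p = 0.0195. Relative to olfactory receptor genes the log2 difference was -0.088 with a limma p of 0.185. Kera was dim too, with a mean of 82.0 over all mice. Its limma p was 0.0657 after quantile normalization and 0.0752 after cyclic loess. Ogn, also named osteoglycin or mimecan, ran from 95.8 over 110 to 284 in lactating mice and from 68.8 over 88.2 to 99.0 in virgin mice. The difference was 0.55 log2 units (SE 0.20), with limma p = 0.0192 and exact permutation p = 0.00433. Lactating mouse 4 at 284 stood far above the other lactating mice, and without it the difference was 0.34 log2 units with a limma p of 0.00527.

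Ogn is also 1 of 13 markers of meningeal and perivascular fibroblasts, the cells that make most fibrillar collagen in the brain. Of these markers 0 were lower and 1 was higher, 12 of 13 were above zero, and the median log2 difference was 0.13. Their summed intensity was 4093 to 7483 in lactating and 4072 to 5299 in virgin mice. Their mean deviation was 0.64 in lactating mouse 4, -0.18 to 0.12 in the other lactating mice and -0.19 to 0.17 in virgin mice. The count above zero and the median include lactating mouse 4 and were not computed without it. The fibrillar collagens of that mouse were not raised alike, with Col1a2 the highest of 12 mice at 539 and Col1a1 at 487. In the same mouse the markers of vascular smooth muscle had a mean deviation of 0.36 and those of excitatory neurons of cortex and hippocampus 0.81. Their part in the results was not tested.

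Markers of the other cell types that make or border on vascular collagen were counted beside 4.83% of all genes called lower and 3.86% higher. Of 9 pericyte markers 0 were called, with a summed intensity of 5018 to 6271 in lactating and 5429 to 6055 in virgin mice. Of 8 smooth muscle markers 0 were called, and of 11 endothelial markers 1 was, the glucose transporter Slc2a1, higher in lactating mice at 3849 ± 141 against 3404 ± 249 (SD, n = 6 each) with a limma p of 0.00355. Of 12 choroid plexus markers 1 was lower and 1 higher, of 10 ependymal markers 1 was lower, and of 8 markers of oligodendrocyte precursors 0 were called. Of 12 markers of septal neurons and 9 of cortical and hippocampal neurons 0 were called, and of 7 striatal markers 1 was lower. Calls do not show how evenly the tissue was taken. Of the striatal markers 6 of 7 were below zero, with a median log2 difference of -0.17 and a summed intensity of 11809 to 20381 in lactating and 15612 to 20142 in virgin mice. The sum of the cortical and hippocampal markers was 9306 to 15371 in lactating and 9947 to 12105 in virgin mice, and the glutamate transporter Slc17a7 alone ran from 113 to 3722 between lactating mice and from 281 to 1163 between virgin mice. The part of this tissue content in the collagen values was not tested. No marker on these lists was at 0, and the lowest value of any of them in a mouse was 39.4. No background level was set, so this does not show that each marker was expressed.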

How the data were processed

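The authors made cDNA from the septum RNA of each mouse, labelled it and hybridized it to an Affymetrix Mouse Gene 1.0 ST array, with no pooling, and used Affymetrix Power Tools 1.12.0 to turn probe signals into values per transcript cluster, with PLIER and a GC-based background. The deposited values are these intensities, on a linear scale, and the authors' normalization was kept. For the array's annotation, the build is not given in the sources used here. Of 35556 clusters, 21789 carried 1 gene symbol, 1621 several and 12146 none, and genes were named only from clusters of 1 symbol, with the brightest cluster per gene.

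From the deposited intensities log2(intensity + 16) was computed, and the groups were compared over all clusters with limma 3.58.1 in R 4.3.3 (lmFit and eBayes, two-sided). The call was an unadjusted p under 0.05, with Benjamini-Hochberg adjustment given beside it. A fold on this scale understates the change of dim genes, and 496 clusters had means below the added 16. For single genes the exact two-sided permutation test enumerated all 924 ways of drawing 6 of 12 mice, and 0.00216 is the smallest p it can give. Pairs of genes were compared by permutation with 100000 resamples in Python 3.11.15 with numpy 2.4.6 and scipy 1.17.1. The number of arrays limits the precision. Groups came from the labels, which name separate mice. RNA was extracted in matched pairs that the labels do not give, so the groups were compared without a block. The fits were tested on simulated data with independent noise in each cluster. Such data lack the first component of these arrays, so the test does not bear on genes that follow it.

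Values are given in full for collagen genes called in limma, for the 2 brightest of each structural class, for Col1a1, Col1a2, Col3a1, Col4a1 and Col4a2, for genes with 1 mouse far from its group, and for the called genes of each partner list. Further genes are named as examples of a class. The collagen genes, the classes and the lists were chosen with earlier results of these data known. Alternatives covered the linear scale, 1 as the added value, only the brighter clusters, clusters of 1 symbol, quantile, median and cyclic loess scaling, robust variance, array weights, replicate number as a block, the mean over a gene's clusters and each mouse left out. The first principal component as a covariate, the scale relative to olfactory receptor genes and the removal of 2 arrays were chosen after seeing the data.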

Additional observations from a re-analysis of the deposited data

Results flagged for a closer look

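Among 110 groups of 6 mice, which are both groups of the 44 collagen genes and the 11 called partner genes, the highest or lowest mouse stood apart from the rest of its group in 4, by a gap to the next mouse that made up more than 0.625 of the group's range. Chance alone gives this in about 1 of 20 groups. Col9a3 had such a mouse in both groups. In lactating mice, mouse 3 was lowest at 506 with the next at 574, a gap of 0.670 of the range, and in virgin mice, mouse 4 was lowest at 476 with the next at 603, a gap of 0.720 of the range. In Col4a4, virgin mouse 2 was highest at 271 with the next at 239, a gap of 0.720 of the range. These 3 mice were also the lowest lactating, the lowest virgin and the highest virgin mouse in the mean of all collagen genes, at -0.13, -0.093 and 0.13. In Ogn, lactating mouse 4 was highest at 284 with the next at 139, a gap of 0.773 of the range, and the mean deviation of the fibroblast markers was highest in the same mouse at 0.64.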

How the results depend on the processing

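Col18a1, Col5a3, Col15a1 and Col26a1 were below zero under every alternative tried, and higher collagen genes numbered 0 throughout. The 4 lower collagen genes became 2 in clusters above the median intensity, where 25 collagen genes were measured, and 2 after subtraction of array medians. They became 1 with the first component as a covariate, which was Col25a1, and 0 relative to olfactory receptor genes and without 2 arrays. The shares of all clusters called lower were then 2.77%, 0.65% and 2.38%, against 4.69% in the main fit. With 1 mouse left out the count was 2 to 8, with 2 without lactating mouse 2, lactating mouse 3, virgin mouse 1, virgin mouse 2 or virgin mouse 6 and 8 without virgin mouse 4. Of all clusters 2.96% to 7.31% were called lower in these fits. The median of the collagen genes turned to 0.0188 with the first component and 0.0116 relative to olfactory receptor genes, which moved the median of all clusters to 0.0599. With 1 mouse left out it was -0.083 to -0.029, with -0.033 without lactating mouse 3 and -0.029 without virgin mouse 2. Of the partner genes, 6 were lower, and 2 in clusters above the median, 2 with the first component, 0 relative to olfactory receptor genes, 3 without 2 arrays and 4 to 8 with 1 mouse left out. Higher partner genes rose from 5 to 8 after quantile normalization and cyclic loess, to 9 after subtraction of array medians and relative to olfactory receptor genes, and were 4 to 7 with 1 mouse left out. The 5 pairs of chains became 4 without 2 mice.

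Of the 44 collagen genes 39 were below zero, and 14 with the first component, 16 relative to olfactory receptor genes, 25 without 2 arrays, 33 after quantile normalization and 34 after subtraction of array medians. The olfactory receptor scale and the subtraction of array medians take 1 value per array from every cluster. Each therefore moves all log2 differences by the same amount, and the median of all clusters was then 0.0599 and 0.014. Among the genes given in full the following signs turned. Relative to olfactory receptor genes they were 0.024 for Col23a1, 0.013 for Col27a1, 0.010 for Col9a3, 0.0067 for Col9a2, 0.023 for Col28a1, 0.069 for Col4a1, 0.068 for Col8a2, 0.036 for Col3a1 and 0.022 for Col4a4. With the first component they were 0.045 for Col27a1, 0.017 for Col9a3, 0.039 for Col9a2, 0.031 for Col28a1, 0.025 for Col4a1, 0.029 for Col8a2, 0.043 for Col3a1 and 0.018 for Col4a4. Without 2 arrays they were -0.0063 for Col6a1, 0.0081 for Col27a1, 0.00045 for Col9a3, 0.0048 for Col9a2, 0.0059 for Col28a1, 0.018 for Col4a1, 0.0086 for Col8a2, 0.026 for Col3a1 and 0.0069 for Col4a4. Quantile normalization gave -0.0070 for Col6a1, 0.0098 for Col4a1 and 0.038 for Col8a2, cyclic loess -0.0087, 0.013 and 0.037, array medians 0.023 for Col4a1 and 0.022 for Col8a2, array weights 0.0054 for Col4a1 and linear intensities 0.0025 for Col8a2. With 1 mouse left out the range crossed zero for Col1a2 (-0.014 to 0.073), Col3a1 (-0.057 to 0.0066), Col4a1 (-0.015 to 0.012), Col4a2 (-0.015 to 0.019), Col6a1 (-0.031 to 0.090), Col8a1 (-0.019 to 0.055) and Col8a2 (-0.039 to 0.020). Turns on the olfactory receptor scale and after subtraction of array medians follow from that common shift. The cause of the other turns was not tested.

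Whether replicate numbers pair the mice is not known. Residuals of same-numbered mice correlated above 0.1 in 2 of 6 numbers and at most at 0.250. This cannot settle the question, as a small effect of the pair would also give low values. With replicate number as a block, 4 collagen genes were lower, 3 of them shared with the fit without it, with Col10a1 added and Col26a1 at a limma p of 0.0587.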
